A study of Mus musculus with 39 samples.

Results

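The 43 RNAs described here encode nuclear receptors, hepatocyte transcription factors and a few of their coregulators. They were taken by gene symbol from a fixed list, and all 43 were rows of both deposited TPM tables, which share 13230 genes. RNA was measured by ATLAS-Seq, in which a tissue homogenate is spun through a sucrose gradient and the RNA of each fraction is sequenced. Livers came from female mice of the FVB strain, all wild type and untreated, and were homogenized with beads in a detergent-free buffer, after which nuclei were spun out. Gradient 1 has 17 libraries (fractions 4 to 19 and 21) and gradient 2 has 22 (fractions 3 to 24), and low numbers are the light end. The 2 gradients are biological replicates, each fraction of a gradient has 1 library, and the sources used here give neither the age of the animals nor whether livers were pooled.

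Nuclear receptors are transcription factors whose activity is set by small lipophilic ligands such as bile acids, oxysterols, retinoids, fatty acids and steroid or thyroid hormones. Many of them bind DNA as a pair with a retinoid X receptor, and they recruit coactivators or corepressors that alter chromatin. In the hepatocyte they act with forkhead, C/EBP and Onecut factors on the genes of bile acid, drug, lipid and glucose metabolism. Their proteins are made in the cytosol and work in the nucleus. Creb3l3 is the exception among the 43, since its protein is made as a membrane protein of the endoplasmic reticulum and is cut to release the transcription factor.

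The light zone is fractions 4 to 7, the middle zone fractions 10 to 13 and the dense zone fractions 16 to 19. A zone value is the mean over these 4 fractions in 1 gradient, so each zone has n = 2 gradients. Changes are differences of log2(TPM + 1), tested with limma over all 11754 genes whose mean TPM reached 1, and called at an adjusted p under 0.05. TPM is each RNA's share, per length, of the RNA in a library. It can be compared between genes, but a rise of abundant RNAs lowers the rest, and it holds no read counts, so the depth behind each value is unknown. The authors made every library from the same mass of RNA, so TPM does not show how much RNA a fraction held. A maximum across fractions is thus the highest share of a library, which need not be where most copies of an RNA lay. The homogenate mixes all cells of the liver, so for the level of an RNA in a library, fewer cells that express it and less of it per cell cannot be told apart, while the zones compared are parts of the same homogenate.

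For orientation, 22.3% of all genes rose and 39.6% fell from the light to the dense zone. Beside this, 15 of 16 RNAs of cytosolic enzymes rose and 1 fell, while 13 of 16 RNAs of secreted proteins fell and 0 rose. The 10 hepatocyte markers were all measured, Alb at a mean of 10503 TPM in gradient 1 and 8497 TPM in gradient 2, and 3 rose (30%) and 5 fell (50%). Markers of 3 other liver cell types fell: 6 of 8 for Kupffer cells (75%), 6 of 7 for sinusoidal endothelium (85.7%) and 7 of 8 for stellate cells (87.5%). None of the listed markers that were tested for these 3 cell types was called as rising, and Des of the stellate list had an uncalled change of 0.46. These lists were not matched for the kind of protein encoded. The 3 cholangiocyte markers that could be tested were not called by limma and none had an unadjusted p under 0.05, with a median change of 0.22. With the gradient fitted as a block, 1 of these 3 was called, beside 80.6% of all genes. Both blood cell markers that could be tested fell. The 4 nuclear-retained RNAs that were measured fell too, and their summed level went from 181 to 390 TPM in the light-zone libraries of gradient 1 to 15.8 to 29.0 TPM in its dense-zone libraries, and from 340 to 783 TPM to 25.6 to 30.6 TPM in gradient 2. The part of these RNAs in the results below was not tested.

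The 43 RNAs spanned over 100-fold in level. The mean of the gradients ran from 5.89 TPM for Ppard to 721 TPM for Cebpa, with a median of 42.2 TPM. It was at least 100 TPM for 11 members and under 10 TPM for 4 members. Together they took 0.313% to 0.58% of the TPM of a library in gradient 1 and 0.203% to 0.507% in gradient 2.

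Profiles of most members repeated between the gradients. Over the 17 fraction numbers that both gradients have, Pearson's R of a member's TPM between gradients had a median of 0.96, against 0.90 over all genes tested, and ranged from 0.53 for Nr5a2 to 0.99 for Ppara. It was over 0.9 for 30 of 43 members (69.8%, against 49.8% of all genes). Neighboring fractions are not independent, so these values are a description. The center of sedimentation, the mean fraction number weighted by TPM over the shared fractions, differed between gradients by a median of 0.27 fractions and by at most 0.98, for Pparg. The center does not take in how much RNA each fraction held. It was the higher one in gradient 1 for 31 members. The median center of the members was 11.05 in gradient 1 and 10.76 in gradient 2, beside 11.26 over all genes in each.

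**Figure D1:**
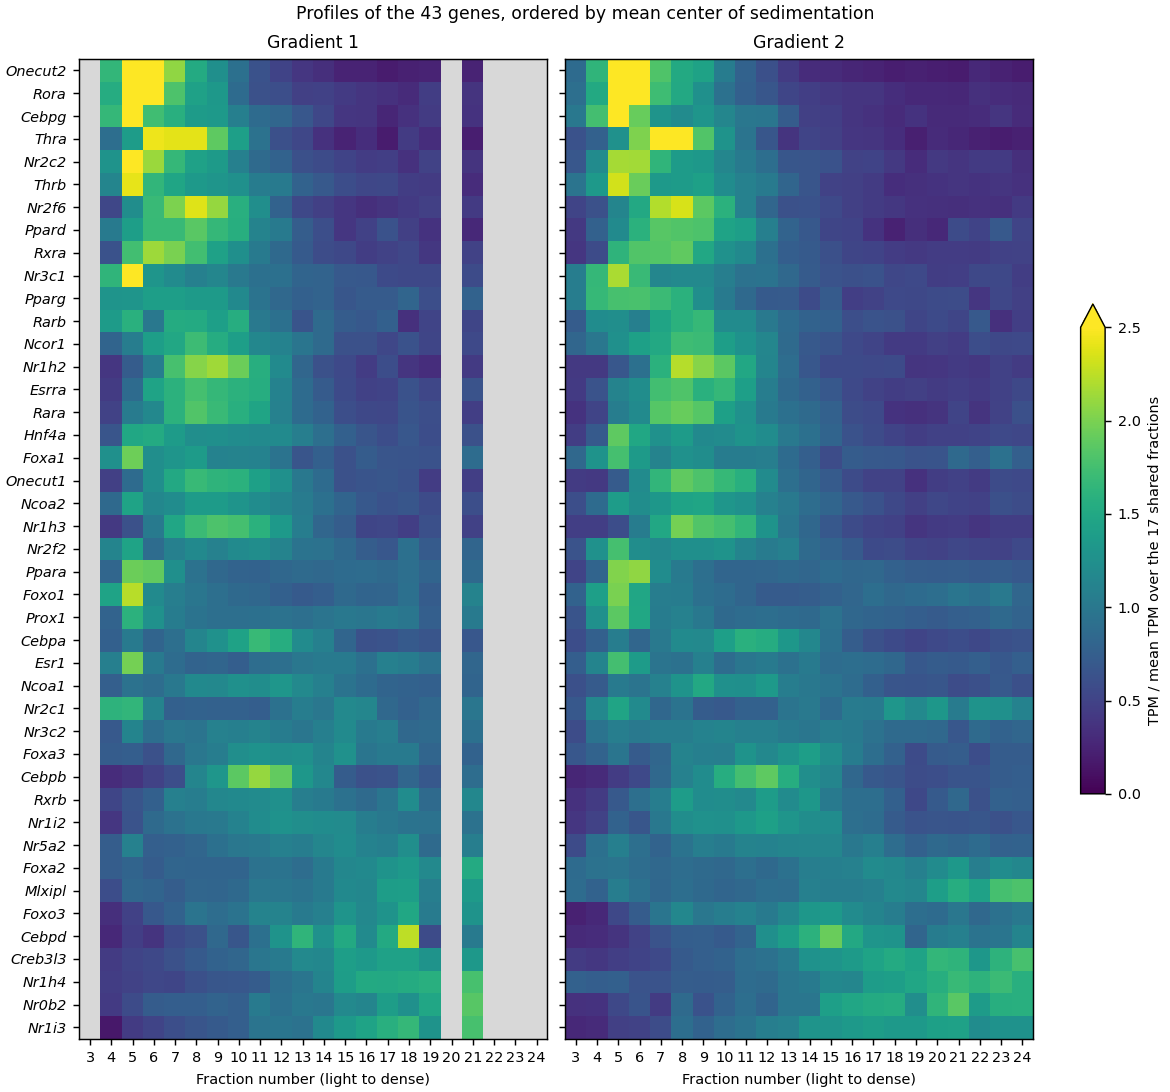
Heat map of the 43 members (rows, by mean center of sedimentation) across fractions 3 to 24 (columns) of gradient 1 (left) and gradient 2 (right). Color is TPM divided by the gene's mean over the 17 shared fractions, on a linear scale that saturates at 2.5, and grey marks fractions with no library. The order runs from Onecut2, Rora and Cebpg, brightest at fractions 5 and 6, to Nr1h4, Nr0b2 and Nr1i3, brightest in the dense fractions.

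The members did not share 1 profile. The light zone held the highest of the 3 zone values in both gradients for 21 members (48.8%, against 42% of all genes), the middle zone for 12 (27.9%, against 25%) and the dense zone for 7 (16.3%, against 21.2%), and the highest zone differed between gradients for 3. Maxima were at fraction 5 or 6 in both gradients for 14 members (32.6%, against 26% of all genes), among them Rora, Ppara, Nr3c1, Hnf4a and Onecut2. They were at fraction 7, 8 or 9 for 8 members (18.6%, against 12.3%), among them Nr1h2, Nr1h3, Esrra and Ncor1. Those of Nr1i2, Rxrb, Cebpa and Cebpb were at fractions 10 to 13 (9.3%, against 9.42%). For 9 members (20.9%, against 23.5%), among them Nr1h4, Nr1i3, Nr0b2 and Creb3l3, the maxima were at fraction 14 or later. Of the 903 pairs of members, 47 had R over 0.9 in both gradients and 304 had R under 0 in both. The most alike were Rora and Onecut2 (R = 0.997 in gradient 1 and 0.998 in gradient 2), and the most opposed were Pparg and Creb3l3 (R = -0.93 and -0.92). No count over pairs of all genes is set beside these numbers of pairs.

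From the light to the dense zone, 27 of 43 members were called. This is 62.8% of the members, close to the 61.9% called among all genes tested. Of these, 6 rose (14% of members, 22.3% of all genes) and 21 fell (48.8%, against 39.6%). The members' median change was -0.76, beside -0.43 over all genes. With quantile normalization, which moved the median of all genes to -0.05, the members' median was -0.65, 7 rose (30.7% of all genes) and 20 fell (29.9% of all genes), and no called member turned its direction. Without the light zone of gradient 1, 14 members were called (43.4% of all genes), and Nr1h2, Nr1h3, Nr1h4, Ppara, Ppard, Pparg, Esrra, Nr2f2, Foxa1, Cebpd, Foxo1, Foxo3 and Ncor1 lost their calls. Without the light zone of gradient 2, 20 were called (45.7% of all genes), and Nr1h3, Nr1h4, Pparg, Esrra, Nr2f2, Foxa1 and Ncor1 lost theirs, and without the dense zone of gradient 2, 24 were called (60.9% of all genes), and Nr1h2, Nr1h3, Esrra, Foxo3 and Ncor1 lost theirs. With the gradient as a block, since the zones of a gradient come from 1 homogenate, 36 were called (80.6% of all genes), and Rara, Rarb, Esr1, Foxa2, Cebpa, Cebpb, Onecut1, Prox1 and Mlxipl were added.

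**Figure D2:**
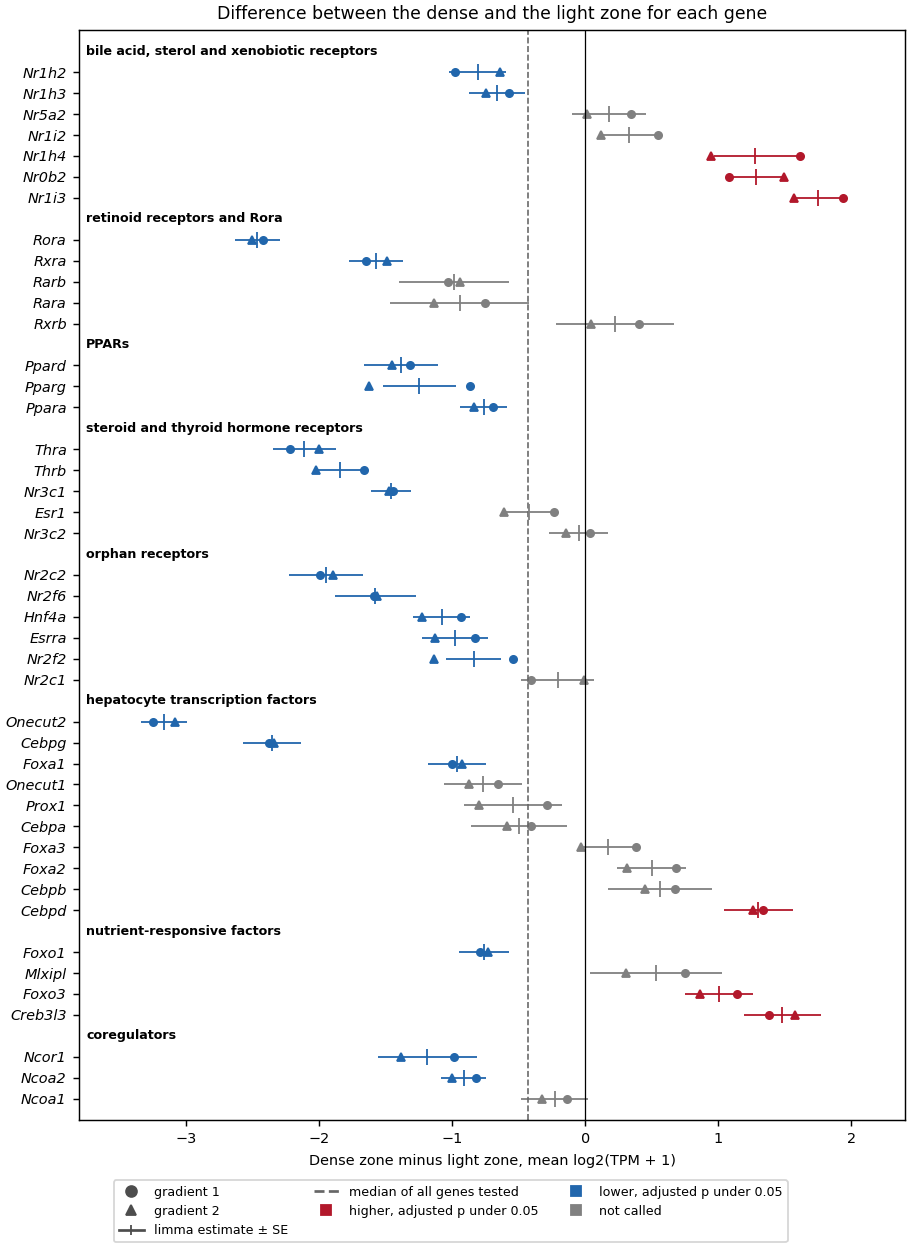
Dense zone minus light zone on the log2(TPM + 1) scale (horizontal axis) for each member, grouped by role. Circles are gradient 1, triangles gradient 2, and ticks with bars the limma estimate ± SE, with red for members called higher, blue for members called lower and grey for members not called. The dashed line is the median of all genes (-0.43), and values run from -3.17 for Onecut2 to 1.75 for Nr1i3.

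From the light to the middle zone, 18 members were called (41.9%, against 47.5% of all genes), of which 9 rose (23.5% of all genes) and 9 fell (24.1% of all genes). Those that rose were Nr1h3, Nr1i2, Nr1i3, Nr0b2, Foxa3, Cebpb, Cebpd, Foxo3 and Creb3l3, and those that fell were Rora, Ppara, Nr3c1, Thra, Thrb, Nr2c2, Cebpg, Onecut2 and Foxo1. Under quantile normalization 5 rose (26.9% of all genes) and 12 fell (24.2% of all genes), and without the 50 most abundant genes 6 rose and 12 fell, with 48.1% of all genes called in either direction. With wider zones 4 rose and 10 fell, with 44.1% of all genes called. Creb3l3 lost its call in these 3 settings and with eBayes without a trend (adjusted p between 0.051 and 0.137), and Foxo3 under quantile normalization (0.0825) and with wider zones (0.0793). Nr1h3 also lost its call under quantile normalization (0.0845) and with wider zones (0.0918). The call of Nr0b2 was lost with a pseudocount of 0.1, without the 50 most abundant genes, with narrower or wider zones, with eBayes without a trend and without any 1 of the 6 zones (adjusted p between 0.051 and 0.242). The block gave 31 calls (72.1% of all genes). The count was 3 without the light zone of gradient 1 (24.8% of all genes), 7 without the light zone of gradient 2 (27.6%) or the middle zone of gradient 1 (24.9%), and 5 without the middle zone of gradient 2 (33.5%). Nr1h3, Nr1i2, Nr0b2, Ppara, Thra, Thrb, Nr2c2 and Cebpd lost their calls in each of these 4 settings, and Nr3c1, Foxa3, Foxo1, Foxo3 and Creb3l3 in 3 of them, Cebpg in 2 and Cebpb in 1.

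From the middle to the dense zone, 17 members were called (39.5%, against 27.3% of all genes). Only Nr1i3 rose (4.79% of all genes), by 0.58, and 16 members fell (22.5% of all genes). The call of Nr1i3 was lost with no filter (adjusted p = 0.0518), with wider zones (0.0558), with eBayes without a trend (0.0686) and without any 1 of the 6 zones (0.0733 to 0.251). The members' median change was -0.68, beside -0.28 over all genes. Under quantile normalization, which moved the median of all genes to 0.04, the members' median was -0.32. In that setting 2 rose (10.3% of all genes) and 10 fell (13.7% of all genes). The block gave 32 calls (53.4% of all genes), with Nr1h4, Nr0b2, Foxa2 and Creb3l3 among the added rises and Cebpa, Cebpb and Ncor1 among the added falls. No member was called by limma without the middle zone of either gradient, where 18 (without gradient 1) and 20 members (without gradient 2) had an unadjusted p under 0.05, and there limma called no gene at all. The count was 7 without the light zone of gradient 1 (16.6% of all genes), the light zone of gradient 2 (16.5%) or the dense zone of gradient 2 (17.7%), and besides Nr1i3 the members Rora, Ppard, Nr3c1, Thra, Hnf4a, Esrra, Nr2f2, Nr2f6 and Onecut1 lost their calls in each of these 3 settings.

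The receptors for bile acids, oxysterols and xenobiotics held both directions. Nr1i3 (CAR, the constitutive androstane receptor that drives drug metabolism) averaged 67.8, 144 and 237 TPM in the light, middle and dense zones of gradient 1 and 73.7, 159 and 215 TPM in gradient 2. Every dense value was above every light value, and the rise of 1.75 ± 0.17 (SE; limma adjusted p = 0.00059) was the highest of the 43. Under quantile normalization it was 1.63 and that of Cebpd was higher, at 1.88, and Cebpd was also highest with narrower zones and Creb3l3 without the light zone of gradient 1. The lowest library of Nr1i3 was fraction 4 of gradient 1 (25.5 TPM) and its highest fraction 21 of that gradient (281 TPM).

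Nr0b2 (SHP, the corepressor induced by bile acids that has no DNA-binding domain) averaged 19.6, 29.4 and 41.8 TPM in gradient 1 and 13.8, 24.2 and 40.2 TPM in gradient 2. Light and dense values did not overlap, and the rise was 1.29 ± 0.22 (limma adjusted p = 0.0042). Nr1h4 (FXR, the bile acid receptor) went from 84.7 to 261 TPM between the light and dense zones of gradient 1 and from 77.9 to 151 TPM in gradient 2, a rise of 1.28 ± 0.31 (limma adjusted p = 0.014). Its value went on up in the densest libraries, to 300.2 TPM in fraction 21 of gradient 1 and 190 TPM in fraction 23 of gradient 2.

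The oxysterol receptors peaked near the boundary of the light and middle zones. Nr1h3 (LXR alpha) averaged 169, 276 and 102 TPM in gradient 1 and 144, 226 and 77.5 TPM in gradient 2, and its maxima were at fraction 9 (344 TPM) and fraction 8 (314 TPM). It fell by 0.66 ± 0.21 from the light to the dense zone (limma adjusted p = 0.036) and by 1.46 ± 0.21 from the middle zone (limma adjusted p = 0.0082). Nr1h2 (LXR beta, the widely expressed form) averaged 60.8, 85.1 and 26.9 TPM in gradient 1 and 44.5, 66.6 and 25.4 TPM in gradient 2, with changes of -0.81 ± 0.21 (limma adjusted p = 0.019) and -1.45 ± 0.21 (limma adjusted p = 0.0084). For both, the middle zone means were the highest in each gradient and the dense zone means lay below the other zone means. Fraction 4, within the light zone, was nonetheless below the dense mean of its gradient for both. It held 78.8 and 74.2 TPM of Nr1h3 in gradients 1 and 2, and 24.1 and 20.65 TPM of Nr1h2. The light-to-dense call of Nr1h3 was lost without the light zone of either gradient, the middle zone of either gradient or the dense zone of gradient 2, with adjusted p between 0.0523 and 0.166. That of Nr1h2 was lost without the light zone of gradient 1 (adjusted p = 0.106), without the dense zone of gradient 2 (0.0544) and with narrower zones (0.0505).

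Nr1i2 (PXR, the second xenobiotic sensor) was highest in the middle zone, at 92.0 and 93.0 TPM in gradients 1 and 2, against 53.8 and 51.8 TPM in the light zone, a rise of 0.85 ± 0.20 (limma adjusted p = 0.016) whose call was lost without the light or the middle zone of either gradient (adjusted p between 0.0712 and 0.0828). Its dense values were 75.1 and 55.1 TPM, and the light-to-dense change of 0.33 ± 0.20 was not called. Nr5a2 (LRH-1, a regulator of bile acid synthesis) was the flattest of the group, between 61.4 and 102 TPM in all libraries of gradient 1 and between 33.9 and 68.6 TPM in gradient 2, with a light-to-dense change of 0.18 ± 0.28 that was not called.

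**Figure D3:**
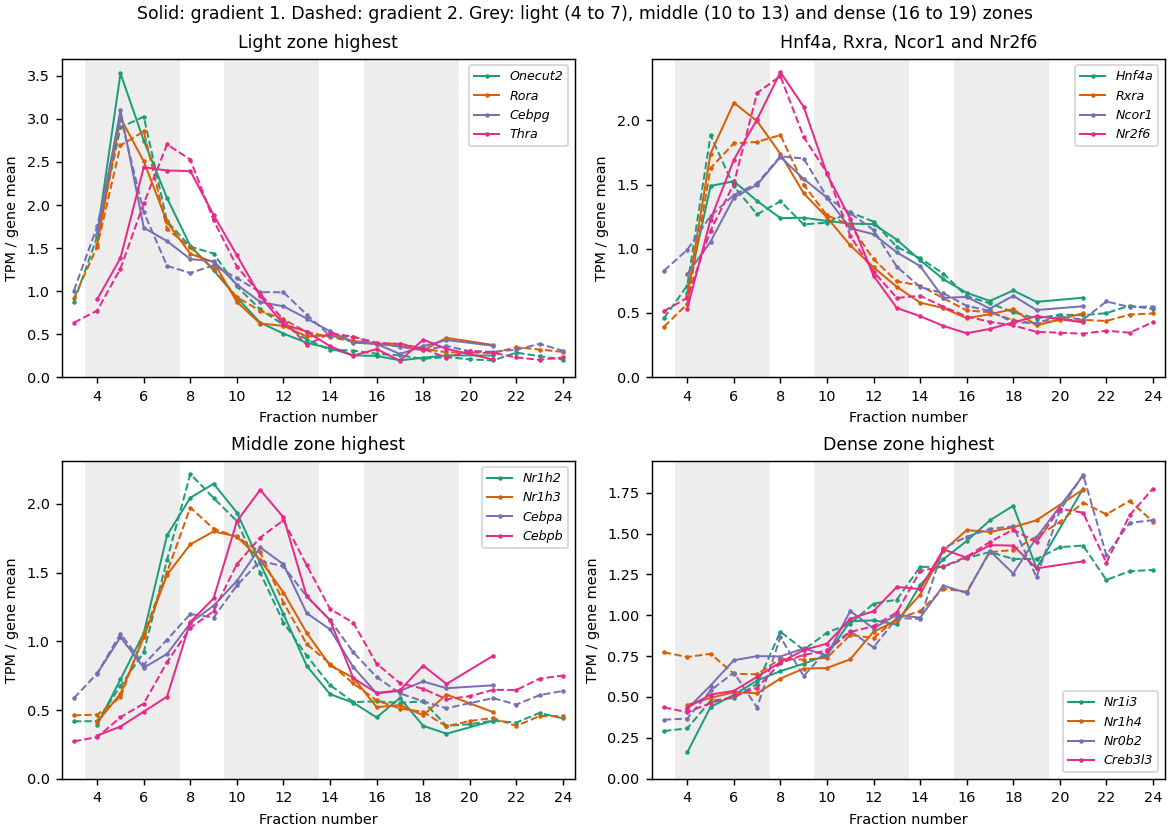
TPM divided by the gene's mean over the 17 shared fractions (vertical axis) against fraction number (horizontal axis) for 16 members, in gradient 1 (solid) and gradient 2 (dashed), with the 3 zones in grey. Onecut2, Rora and Cebpg peak at fractions 5 and 6, Nr1h2 and Nr1h3 at 8 and 9, Cebpa and Cebpb at 11 and 12, and Nr1i3, Nr1h4, Nr0b2 and Creb3l3 climb toward the dense end.

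Rxra and Rora were the called members among the 4 retinoid receptors and Rora, and both fell from the light to the dense zone. Rxra, a partner of many receptors named here and the fourth most abundant member, averaged 573, 337 and 166 TPM in gradient 1 and 431, 303 and 139 TPM in gradient 2. All dense values lay below all light values, with a change of -1.57 ± 0.20 (limma adjusted p = 0.0014), and it also fell from the middle zone by 1.05 ± 0.20 (limma adjusted p = 0.016). The latter call was lost without the dense zone of gradient 2 (change of -0.92). It was also lost without the middle zone of gradient 1 (-0.97) or gradient 2 (-1.12). Rora, an orphan receptor tied to the circadian clock and lipid metabolism, averaged 72.4, 21.0 and 12.4 TPM in gradient 1 and 69.9, 23.0 and 11.1 TPM in gradient 2. The zones did not overlap, and the change of -2.46 ± 0.17 (limma adjusted p = 0.00032) was reached mostly by the middle zone, where the change from the light zone was -1.63 ± 0.17 (limma adjusted p = 0.0016).

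Rxrb, the more broadly expressed partner receptor, was highest in the middle zone of both gradients (56.7 and 35.9 TPM) and did not follow Rxra. Its change from light to dense was 0.22 ± 0.44. The retinoic acid receptors Rara and Rarb were lower in the dense zone in both gradients, at 21.5 against 39.8 TPM and 9.18 against 22.9 TPM for Rara and at 2.89 against 6.87 TPM and 5.29 against 11.1 TPM for Rarb. The changes of -0.94 ± 0.52 and -0.98 ± 0.41 were not called (limma adjusted p = 0.16 and 0.082), but were with the gradient as a block (adjusted p = 0.0014 and 0.00085).

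All 3 PPARs, the receptors for fatty acids and their derivatives, fell from light to dense, as did 39.6% of all genes. Ppard, which is expressed in most tissues, averaged 9.52, 7.30 and 3.21 TPM in gradient 1 and 7.07, 6.17 and 1.88 TPM in gradient 2, a change of -1.38 ± 0.28 (limma adjusted p = 0.0073). Pparg, best known from fat cells, averaged 20.8, 14.5 and 11.0 TPM in gradient 1 and 23.0, 11.0 and 6.81 TPM in gradient 2, a change of -1.25 ± 0.27 (limma adjusted p = 0.0098) that was larger in gradient 2 (-1.62) than in gradient 1 (-0.87). In neither gene did the dense values reach the light values. Both calls were lost without the light zone of gradient 1 (adjusted p = 0.0574 for Ppard and 0.0576 for Pparg), and that of Pparg also without the light zone of gradient 2 (adjusted p = 0.0734).

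Ppara, the main regulator of fatty acid oxidation in liver, had another course. It averaged 365 and 332 TPM in the light zones of gradients 1 and 2, 203 and 179 TPM in the middle zones, and 213 and 173 TPM in the dense zones. The whole change of -0.76 ± 0.18 (limma adjusted p = 0.013) was present by the middle zone, and the change from middle to dense was 0.01 ± 0.18.

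Among the receptors for steroid and thyroid hormones, 3 of 5 fell from the light to the dense zone (39.6% of all genes). Thra, the thyroid hormone receptor best known from heart and brain, averaged 30.3, 14.9 and 5.45 TPM in gradient 1 and 23.9, 11.6 and 4.73 TPM in gradient 2, a change of -2.11 ± 0.24 (limma adjusted p = 0.00092). Thrb, the main thyroid hormone receptor of the liver, averaged 64.0, 39.6 and 18.9 TPM in gradient 1 and 62.3, 37.3 and 14.3 TPM in gradient 2, a change of -1.84 ± 0.19 (limma adjusted p = 0.00076). For both, the zones were ordered light, middle, dense in each gradient without overlap, and each step was called with all zones in the fit, but both steps lost their calls without the middle zone of either gradient.

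Nr3c1, the glucocorticoid receptor, went from 130.4 to 45.3 TPM in gradient 1 and from 118 to 41.1 TPM in gradient 2, a change of -1.46 ± 0.15 (limma adjusted p = 0.00076). Nr3c2, the mineralocorticoid receptor, was nearly level, with zone means between 14.5 and 16.5 TPM in gradient 1 and between 17.2 and 20.1 TPM in gradient 2. Esr1, the estrogen receptor alpha, had its maximum at fraction 5 in both gradients (83.4 and 70.9 TPM). Its light-to-dense change of -0.42 ± 0.18 was not called (limma adjusted p = 0.083), but was with the gradient as a block (adjusted p = 0.031).

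The orphan receptors, for which a ligand is not known or not needed, fell in 5 of 6 cases (39.6% of all genes). Hnf4a, which defines hepatocyte identity and was the second most abundant member, averaged 673, 623 and 335 TPM in gradient 1 and 607, 535 and 246 TPM in gradient 2. Light and middle values overlapped between gradients, and the dense values lay below both. The change from light to middle was -0.07 ± 0.21, that from light to dense was -1.08 ± 0.21 (limma adjusted p = 0.0065), and that from middle to dense was -1.01 ± 0.21 (limma adjusted p = 0.020). The last call was lost without the light or the middle zone of either gradient and without the dense zone of gradient 2 (adjusted p between 0.0553 and 0.119).

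Nr2c2 (TR4) averaged 46.1, 20.1 and 10.5 TPM in gradient 1 and 31.1, 16.3 and 7.50 TPM in gradient 2, a change of -1.95 ± 0.28 (limma adjusted p = 0.0020). Nr2f6 (EAR2, a repressor of the COUP family) averaged 216, 164 and 64.1 TPM in gradient 1 and 147, 111 and 44.4 TPM in gradient 2, a change of -1.58 ± 0.30 (limma adjusted p = 0.0061), and was at its maximum in fraction 8 in both. Esrra, a regulator of mitochondrial genes, and Nr2f2 (COUP-TFII) fell by 0.98 ± 0.25 and 0.84 ± 0.20 (limma adjusted p = 0.016 and 0.014). Nr2f2 was less alike in the gradients, with changes of -0.55 and -1.13.

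Nr2c1 (TR2), the relative of Nr2c2, was low in the middle zone. It averaged 8.77, 5.97 and 6.17 TPM in gradient 1 and 10.3, 7.09 and 10.1 TPM in gradient 2, so it stayed low in the dense zone of gradient 1 and returned to its light value in gradient 2. Its R between gradients was 0.58, and none of its changes was called, apart from that from light to middle with the gradient as a block (adjusted p = 0.039).

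The hepatocyte transcription factors held the widest range of changes, from -3.17 to 1.30. Onecut2, a cut-homeodomain factor, averaged 94.97, 23.4 and 8.73 TPM in gradient 1 and 82.3, 25.4 and 8.54 TPM in gradient 2. Each zone was apart from the next, and the change of -3.17 ± 0.17, which is 8.97-fold lower in the dense zone on the log2(TPM + 1) scale, was the largest of the 43 (limma adjusted p = 0.00030). It rose from 62.8 TPM in fraction 4 to 134 TPM in fraction 5 of gradient 1, and it was under 10 TPM in every library of that gradient from fraction 15 on. Besides Rora, genes among the most like it over the 17 shared fractions out of 8460 whose mean reached 5 TPM in both gradients were Mdm4 (R = 0.994 and 0.996), A730017L22Rik (0.991 and 0.995) and Purb (0.993 and 0.991). Onecut1 (HNF6) peaked at fraction 8 in both gradients instead and had a change of -0.77 ± 0.29 that was not called (limma adjusted p = 0.063), but was with the gradient as a block (adjusted p = 0.0022).

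The 4 C/EBP factors took 3 kinds of profile. Cebpg, a short C/EBP protein without an activation domain, averaged 88.6, 37.8 and 15.9 TPM in gradient 1 and 68.8, 33.2 and 12.2 TPM in gradient 2, a change of -2.36 ± 0.22 (limma adjusted p = 0.00056) with no overlap of zones. Cebpd, an acute-phase factor, averaged 3.09, 8.28 and 10.2 TPM in gradient 1 and 4.54, 10.3 and 12.2 TPM in gradient 2, a rise of 1.30 ± 0.26 (limma adjusted p = 0.0070). It is one of the least abundant members, its values were uneven in gradient 1, with 16.6 TPM in fraction 18 and 4.18 TPM in fraction 19, and its call was lost without the light zone of gradient 1 (adjusted p = 0.0588).

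Cebpa and Cebpb, the 2 abundant C/EBP factors of the hepatocyte, peaked at fractions 11 and 12. Cebpa averaged 768, 1288 and 575 TPM in gradient 1 and 519, 831 and 345 TPM in gradient 2. Cebpb averaged 118, 477 and 184 TPM in gradient 1 and 227, 713 and 292 TPM in gradient 2, and its rise of 1.89 ± 0.39 from light to middle was the largest of the members (limma adjusted p = 0.012), with the call lost without the light zone of gradient 1 (adjusted p = 0.0714). The light-to-dense changes, -0.50 ± 0.36 for Cebpa and 0.56 ± 0.39 for Cebpb, were called with the block only (adjusted p = 0.0083 and 0.0067, against 0.27 and 0.25).

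The forkhead pioneer factors Foxa1, Foxa2 and Foxa3, which open liver chromatin, also differed. Foxa1 was at its maximum in fraction 5 of both gradients and fell by 0.96 ± 0.22 (limma adjusted p = 0.011), a call lost under quantile normalization (-0.65, adjusted p = 0.0698) and without the light zone of gradient 1 (0.0528) or gradient 2 (0.0799). Foxa2 was highest in the dense zone, at 81.9 against 50.5 TPM in gradient 1 and 55.5 against 44.4 TPM in gradient 2, a change of 0.50 ± 0.26 that was called with the block (adjusted p = 0.014) and under quantile normalization, but not in the unblocked fit (adjusted p = 0.14). Foxa3 rose by 0.64 ± 0.19 from the light to the middle zone (limma adjusted p = 0.035) and had opposite signs between gradients from light to dense (0.38 and -0.03). The call of Foxa3 was lost under quantile normalization, without the 50 most abundant genes, with wider zones, without the light zone of gradient 1 and without the middle zone of either gradient (adjusted p between 0.0509 and 0.165). Prox1, a homeodomain factor that restrains several of these receptors, had its maximum at fraction 5 in both gradients, and its change of -0.54 ± 0.37 was called with the block only (adjusted p = 0.018).

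Of the 4 factors that respond to nutrients, 2 rose (22.3% of all genes) and 1 fell (39.6% of all genes). Foxo1, the insulin-inhibited activator of gluconeogenic genes, averaged 64.4, 34.4 and 35.4 TPM in gradient 1 and 54.1, 28.5 and 31.4 TPM in gradient 2. Light values lay above all others, and the change of -0.76 ± 0.19 (limma adjusted p = 0.015) was complete by the middle zone. Foxo3, its close relative, averaged 26.4, 48.4 and 57.3 TPM in gradient 1 and 39.2, 67.4 and 66.6 TPM in gradient 2, a rise of 1.00 ± 0.26 (limma adjusted p = 0.017). The calls of both were lost without the light zone of gradient 1 (adjusted p = 0.0903 for Foxo1 and 0.0983 for Foxo3), and that of Foxo3 also without the dense zone of gradient 2 (adjusted p = 0.0584).

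Creb3l3 (CREBH) responds to fasting and drives genes of lipid metabolism such as Fgf21 and apolipoproteins. Its gene lies on chromosome 10 of GRCm38 (chr10:81084324-81098874, minus strand). Among the coding parts of the 43 members in GENCODE M21, it held the stretch of 21 codons with the highest mean hydropathy on the Kyte-Doolittle scale, 2.23 at codons 316 to 336, against 1.61 for the next, in Nr2c2, and 0.486 for the lowest, in Cebpg. The stretch is shown because it codes for the part of the protein that sets it apart from the others as a membrane protein. It is coding sequence of exons 10 and 11 of 12 (chr10:81085687-81086062, minus strand, with the intron between them left out), 5′ to 3′, with the 21 codons in capitals and 15 bases of coding sequence on each side:
Creb3l3: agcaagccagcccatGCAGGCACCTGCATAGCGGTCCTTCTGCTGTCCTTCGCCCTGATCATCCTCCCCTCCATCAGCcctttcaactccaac

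The Creb3l3 RNA averaged 134.5, 255 and 350.2 TPM in the light, middle and dense zones of gradient 1 and 91.4, 172 and 274 TPM in gradient 2. The zones did not overlap between light and dense, and the rise was 1.48 ± 0.29 (limma adjusted p = 0.0063). It was lowest in fraction 4 of both gradients (111 and 77.1 TPM) and was still high at the bottom of gradient 2, at 336 TPM in fraction 24. The genes most like it over the 17 shared fractions were Uba1 (R = 0.992 and 0.995), Eif3c (0.991 and 0.994), Upf1 (0.991 and 0.994), Oplah (0.991 and 0.996) and Gtf2i (0.990 and 0.993). Those most like Nr1i3 were Rnpep (0.983 and 0.983), Vps51 (0.982 and 0.987), Skiv2l (0.983 and 0.982), Tfip11 (0.981 and 0.979) and Acin1 (0.979 and 0.993).

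Mlxipl (ChREBP, the glucose-responsive activator of glycolytic and lipogenic genes) was higher in the dense zone in both gradients, at 174 against 103 TPM and 81.8 against 66.2 TPM. Values of the 2 gradients overlapped, and the change of 0.53 ± 0.50 was called with the block only (adjusted p = 0.018, against 0.38). Its maximum in gradient 2 was the last fraction, 24, at 132 TPM.

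Of the 3 coregulators, 2 fell (39.6% of all genes). Ncor1, the corepressor that holds histone deacetylase on unliganded receptors, averaged 91.2, 89.1 and 44.4 TPM in gradient 1 and 64.1, 58.1 and 23.8 TPM in gradient 2, a change of -1.19 ± 0.37 (limma adjusted p = 0.035). Light and middle values overlapped and dense values lay below both. Its call was lost without the light zone of gradient 1 (adjusted p = 0.184) or gradient 2 (0.0787) and without the dense zone of gradient 2 (0.116), where the change was -0.75. Ncoa2, a p160 coactivator, averaged 51.3, 51.2 and 28.2 TPM in gradient 1 and 48.9, 47.6 and 23.8 TPM in gradient 2, a change of -0.91 ± 0.17 (limma adjusted p = 0.0053) while the change from light to middle was -0.00 ± 0.17 (limma adjusted p = 0.99). Ncoa1, the related coactivator, was highest in the middle zone (24.3 and 18.8 TPM) and its change of -0.23 ± 0.25 was not called.

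Close relatives often sedimented apart. The center of Nr1i3 was above that of Nr1i2 by 1.71 fractions in gradient 1 and 1.82 in gradient 2. The center of Rxrb was above that of Rxra by 2.62 and 1.92, that of Nr3c2 above Nr3c1 by 2.04 and 1.75, and that of Foxo3 above Foxo1 by 2.25 and 1.79. Onecut2 lay below Onecut1, with differences of -2.85 and -2.49, and Nr2c2 below Nr2c1, with -2.24 and -2.56. Among the C/EBP factors, Cebpg was below Cebpd, with -4.80 and -4.65. These differences had the same sign in both gradients and were larger than their spread between gradients.

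Other relatives lay closer, within 1 fraction. Nr1h3 was above Nr1h2 by 0.54 and 0.11 fractions, with R between them of 0.97 and 0.98, and Thrb was above Thra by 0.76 and 0.25. Both pairs kept the same sign in the gradients, with means of 0.33 ± 0.30 and 0.51 ± 0.36 (SD, n = 2 gradients). For Rara and Rarb the sign differed between gradients (-0.40 and 0.06). The pairs are described and not tested, since 2 gradients are too few for an exact test of a single pair.

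**Figure D4:**
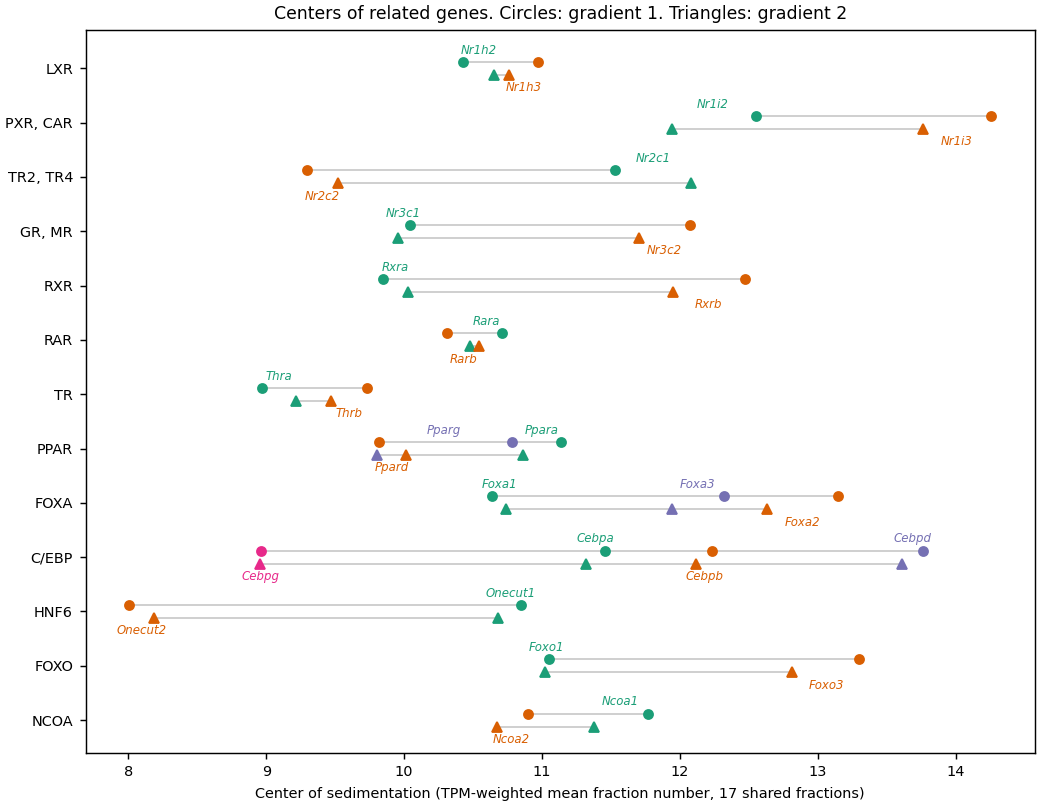
Center of sedimentation (horizontal axis, fraction number) of related members (rows), with gradient 1 as circles and gradient 2 as triangles, and a color for each gene of a row. Cebpg and Cebpd, Onecut2 and Onecut1, and Foxo1 and Foxo3 are far apart in both gradients, while Nr1h2 and Nr1h3, and Rara and Rarb, are close.

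Structure of the annotated transcripts was set beside the center of sedimentation. Neither enters the rule for the members, a list of symbols, although the list was drawn up with earlier results of these data known. One protein-coding transcript per gene was taken from GENCODE M21, and the coding share is the percentage of its bases that code for protein. Over the 43 members, the center rose with the coding share (Pearson's R = 0.41 in gradient 1 and 0.38 in gradient 2) and fell with the length of the 3′ UTR (R = -0.41 and -0.40), while the coding length itself gave R of -0.03 and -0.08. Over 10819 genes with an annotated transcript, R for the coding share was 0.33 and 0.36 and for the 3′ UTR length -0.21 and -0.24. Spearman's rho for the 3′ UTR length was -0.28 in both gradients over the members and -0.28 and -0.32 over all genes. For the whole transcript length, R was -0.40 and -0.41 over the members and -0.12 and -0.14 over all genes. These differences from all genes were not tested. With the longest transcript of each gene, R for the coding share of the members was 0.36 in both gradients. All values come from the same libraries, genes are not independent replicates, and which transcripts were present was not measured here.

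The median coding share was 36.9% for the 21 members highest in the light zone, 54.2% for the 12 highest in the middle zone and 68.9% for the 7 highest in the dense zone, and the median 3′ UTR was 2716, 897 and 479 bases. The ranges overlapped, from 9.33% to 85.7% in the light group and from 21.5% to 76.0% in the dense group. Onecut2 and Cebpg, with the lowest coding shares (9.33% and 9.56%), had 3′ UTRs of 14359 and 3965 bases and were among the 3 lightest members. Cebpd, Foxo3, Pparg, Ncor1 and Ncoa2 were among those that went against the trend. Cebpd and Foxo3, with coding shares of 21.5% and 29.4%, had centers of 13.76 and 13.3 in gradient 1 and 13.61 and 12.81 in gradient 2, and the highest zone of Foxo3 differed between gradients. Pparg, Ncor1 and Ncoa2, with 85.7%, 81.5% and 89.6%, had centers of 10.78, 10.65 and 10.9 in gradient 1 and 9.80, 10.22 and 10.67 in gradient 2.

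**Figure D5:**
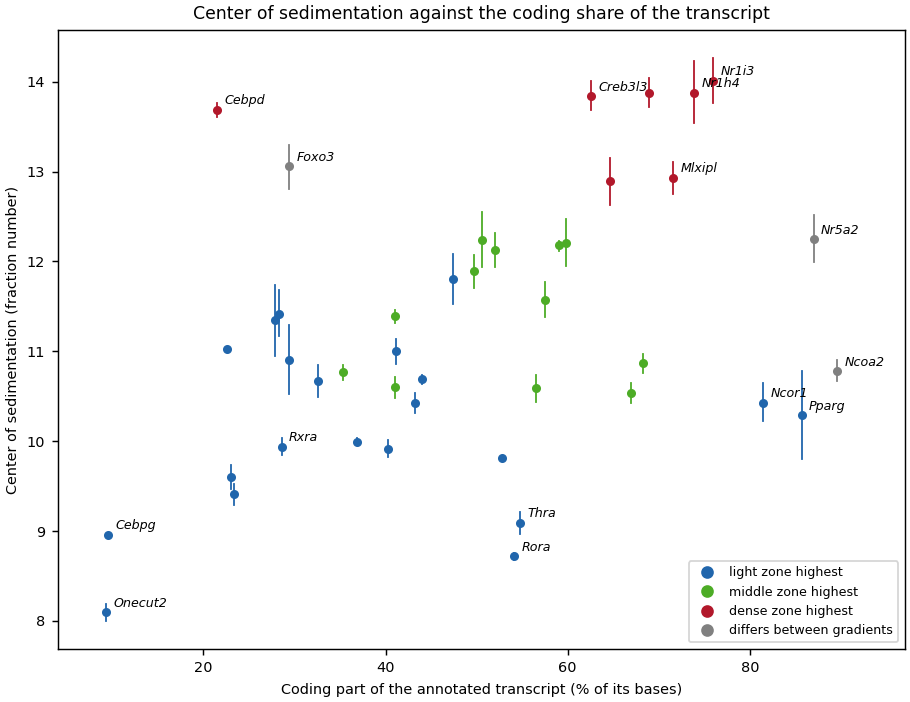
Mean center of sedimentation of each member (vertical axis, fraction number) against the coding share of its annotated transcript (horizontal axis, % of bases), colored by the zone of its highest value, with bars from one gradient to the other. Onecut2 and Cebpg are at the lower left and Nr1i3, Nr1h4 and Creb3l3 at the upper right, and Cebpd, at 21.5%, is among the densest.

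Other genes of these pathways also held both directions from the light to the dense zone, where 22.3% of all genes rose and 39.6% fell with a median of -0.43. Of 8 further nuclear receptors that could be tested, 1 rose (12.5%) and 4 fell (50%). Nr1d1 (REV-ERB alpha), a repressor of the clock, rose by 1.23 ± 0.19 (limma adjusted p = 0.0027), while its relative Nr1d2 fell by 2.09 ± 0.35 (limma adjusted p = 0.0035). Of 28 further coregulators, 7 rose (25%) and 5 fell (17.9%), with a median change of 0.04. Gps2 and Prmt1 rose by 1.42 and 1.88 (limma adjusted p = 0.012 and 0.0014), and Tbl1xr1 and Med1 fell by 2.26 and 1.36 (limma adjusted p = 0.00062 and 0.0024). With the gradient as a block, 7 of these 8 receptors and 16 of these 28 coregulators were called, beside 80.6% of all genes.

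Of 10 transcription factors made as membrane proteins, Creb3l3 included, 3 rose (30%) and 2 fell (20%). Creb3 and Atf6b rose with Creb3l3, by 2.08 and 1.08 (limma adjusted p = 0.00069 and 0.0049), and Atf6 and Nfe2l1 fell by 1.16 and 1.70 (limma adjusted p = 0.0036 and 0.0011). The sterol sensors Srebf1 and Srebf2 changed by 0.15 and -0.14 and were not called. Among 42 further liver transcription factors, a list that also holds Nr1d1 from the receptors above, 3 rose (7.14%: Nfe2l2, Stat3 and Nr1d1) and 16 fell (38.1%), among them all 4 nuclear factor I genes and Atf4, with a median change of -0.29. The block called 31 of these 42, and 6 of the 10 made as membrane proteins, beside 80.6% of all genes.

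Of 34 known targets of these receptors, 10 rose (29.4%, against 22.3% of all genes) and 12 fell (35.3%, against 39.6%), with a median of -0.51 beside -0.43 over all genes. Those that rose include Fasn and Acaca of fatty acid synthesis and Pck1 of gluconeogenesis, by 1.98, 1.13 and 2.53 (limma adjusted p = 0.00046, 0.0016 and 0.0073). Those that fell include the canalicular transporters Abcb4 and Abcc2, the cholesterol exporter Abca1 and the desaturase Scd1, with changes of -1.95, -2.26, -2.41 and -2.32 (limma adjusted p = 0.0010, 0.0023, 0.0012 and 0.00096). G6pc, the glucose-releasing enzyme of gluconeogenesis, fell by 2.48 (limma adjusted p = 0.0034), while Abcg5 and Abcg8, which export sterols into bile, rose by 0.98 and 0.74 (limma adjusted p = 0.023 and 0.0072). Cyp7a1, the first enzyme of bile acid synthesis, fell by 2.79 (limma adjusted p = 0.030). The block called 29 of the 34 targets, beside 80.6% of all genes.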

How the data were processed

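The authors prepared stranded, ribosomal RNA-depleted libraries, quantified them against an mm10 RefSeq index by Kallisto pseudo-alignment and deposited TPM per gene symbol. bcl2fastq 2.16.0.10 is named in the submitters' processing notes. The version of Kallisto and how transcripts were summed are not given in the sources used here. The tables were filtered to genes with TPM over 1 in a fraction. Value columns without a sample numbered 0.

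Members and lists were chosen with earlier results of these data known. Zone means of log2(TPM + 1), with 4 fractions per zone and gradient, were fitted with limma 3.58.1 (R 4.3.3) with a trend in eBayes, all 3 zones in 1 fit, over 11754 genes whose mean TPM over the 24 zone libraries reached 1, two-sided, with Benjamini-Hochberg adjustment over all genes. The fit was also run on simulated zone means with independent noise in each zone, so that run does not cover the pairing of zones. The gradients pair the zones, because the zones of a gradient come from 1 homogenate. Across 11754 genes, the deviation of a gradient from the zone mean correlated at r = 0.665 for light with middle, 0.540 for light with dense and 0.798 for middle with dense zones, and the gradient was also fitted as a block. P-values of the unblocked fit rest on the spread between 2 gradients within zones, moderated over all genes. That spread includes shifts shared by all zones of a gradient, which cancel in a difference between zones. The block takes such shifts out.

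Named in full were Hnf4a, Rxra, Ncor1, Creb3l3 and, in each role, up to 2 largest called rises and up to 2 largest called falls from light to dense. Other members were given by single values, paralogs side by side, and likeness as the 5 genes with the highest lower R of the 2 gradients, for Creb3l3 and the largest rise and fall. Genes outside the members come from the lists. A few genes that these rules name are not reported here. One transcript per gene (APPRIS principal, then CCDS, basic set, longest coding part) and gene positions came from GENCODE M21 for GRCm38, the assembly of mm10. Exons of Nr1h3, Esrra, Cebpg and Onecut1 overlap another gene on the same strand. Alternatives were the block, a pseudocount of 0.1, filters (none, mean TPM of at least 10), quantile normalization, TPM without the 50 most abundant genes, narrower (5 to 6, 11 to 12, 17 to 18) and wider zones (4 to 8, 9 to 14, 15 to 19), eBayes without trend, and each zone of each gradient left out. Python 3.11.15 was used with Matplotlib 3.10.9, SciPy 1.17.1, pandas 2.3.3 and NumPy 2.4.6.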

Additional observations from a re-analysis of the deposited data

How the results depend on the processing

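Counts of members called from light to dense, light to middle and middle to dense were 27, 18 and 17. With the gradient as a block the pairing gave 36, 31 and 32. Leaving out the zones of single gradients, with the lone zone assumed to vary like the others, gave 14 to 28, 3 to 18 and 0 to 18. Beside the 0, limma called no gene of the 11754, with 3374 and 3510 at an unadjusted p under 0.05. The other alternatives kept each count within 1.5 times of its value. The members' median change from light to dense, -0.76, was -0.65 after quantile normalization and -0.61 to -0.85 with a zone left out. The median correlation between gradients, 0.956, was 0.945 for log2(TPM + 1) profiles and 0.829 and 0.799 with gradient 2 shifted by 1 fraction up or down. The median center of 10.9 was 11.82 for log2(TPM + 1) profiles, 10.49 for fractions 4 to 19, and 10.76 to 11.05 with 1 gradient. No called change of a member turned its direction under any alternative run. Of 313 alternative values from light to dense for the 21 named members, 295 stayed on their side of the threshold and 18 were no longer called. From light to middle, calls were lost in 50 of 194 values for the 13 called named members, and from middle to dense in 53 of 194 for 13. The cause of these shifts was not tested. The TPM values hold no counts, and 2 gradients limit every estimate.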
